A study of Mus musculus with 96 samples.

Results

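Single cells treated with RO-3306 were ordered by the share of their counts that came from genes of the mitochondrial genome, and the cells with the highest shares were compared with the cells with the lowest. Of 48 RO-3306 libraries, each made from 1 cell, 36 were kept: they had at least 50000 counts, at least 1000 genes with a count and a mitochondrial share of at most 20%. The share of each cell is the measured value that these groups were chosen by: the 12 cells with the highest share formed the high-share group, the 12 with the lowest share formed the low-share group, and 12 cells lay between them. The series holds 96 libraries in all. The comparison was made on nuclear genes alone, scaled to the nuclear counts, so that counts assigned to mitochondrial genes did not enter it. Reads placed at several sites were counted in fractions. Whether nuclear genes held parts of reads that also match the mitochondrial genome was not tested.

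All cells belong to C10, 1 mouse lung line that the labels call alveolar type II epithelial. The treated cells received RO-3306, which is marketed as inhibiting the mitotic kinase CDK1, at a labelled 10 nM for 36 h. The 48 control cells were untreated. A CellenONE instrument dispensed the single cells and SMART-seq v4 was used for cDNA, per the labels' protocols. In nanoSPLITS, the method in the series title, the lysate of 1 cell is split for RNA and protein measurement; protein was not analysed here. Sample titles combine a letter (A, B, C or D) with a number up to 12, of unstated meaning, and a cell is named here by both. The letter served only to group libraries into sets.

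The mitochondrial genome encodes 13 proteins, all of them subunits of the oxidative phosphorylation (OXPHOS) complexes, together with 2 rRNAs and 22 tRNAs. The remaining OXPHOS subunits are encoded in the nucleus, translated on cytosolic ribosomes and imported into the organelle. The share of mitochondrial counts in a single-cell library is also widely used as a quality filter, since cells that lose cytoplasmic RNA can keep their mitochondria.

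The labels name no culture, so all cells of a treatment count as 1 sample. No p-value or standard error was computed, and differences between the groups are descriptions of these cells. Total counts of the kept RO-3306 cells ranged from 475882 to 5321880. The groups held 29825200 nuclear counts (high) and 24692300 (low). Markers did not bear out the labelled cell type: alveolar type II markers summed to a median of 4.48 counts per 1e6 nuclear counts (CPM) in the high-share group and 31.2 in the low-share group, 5 of the 10 were at 0 in every kept cell, and no epithelial marker reached a mean of 5 CPM. Alveolar type I markers summed to medians of 675 and 595 CPM. Of these 7 markers, 2 averaged 5 CPM or more and 2 were at 0 in every kept cell. Mesenchymal markers, all 6 detected, summed to medians of 2842 and 2788 CPM.

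Cells A11 and C11 stood apart from the other kept RO-3306 cells, and results are given with and without them. A11 had the highest share, 18.1%, with 2879 nuclear genes and 103078 CPM of Malat1, a nuclear-retained long noncoding RNA. C11 had the lowest share, 2.06%, and the fewest nuclear genes, 1946. The other 22 cells of the groups had between 5045 and 7897 nuclear genes. The choice of these cells was made after their values were seen.

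The share in the high-share group had a lowest value of 5.06%, a median of 5.67% and a highest value of 18.1%. In the low-share group it ran from 2.06% through a median of 3.43% to 3.96%. These values chose the cells and are given without a test. The last cell inside the high-share group, C5, had 5.06%, and the first below it had 4.81%. A9, the last inside the low-share group, had 3.96%, and the next cell above had 4.01%, so both boundaries fell within a nearly continuous series. The cap of 20% lay in a wide gap, between A11 at 18.1% and the excluded cell B3 at 56.0%. Total counts overlapped between the groups, with medians of 2179920 in the high and 1761420 in the low-share group. So did the number of nuclear genes at equal depth, with medians of 5521 and 5991 in the 11 cells of each group that reached the common depth.

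**Figure D1:**
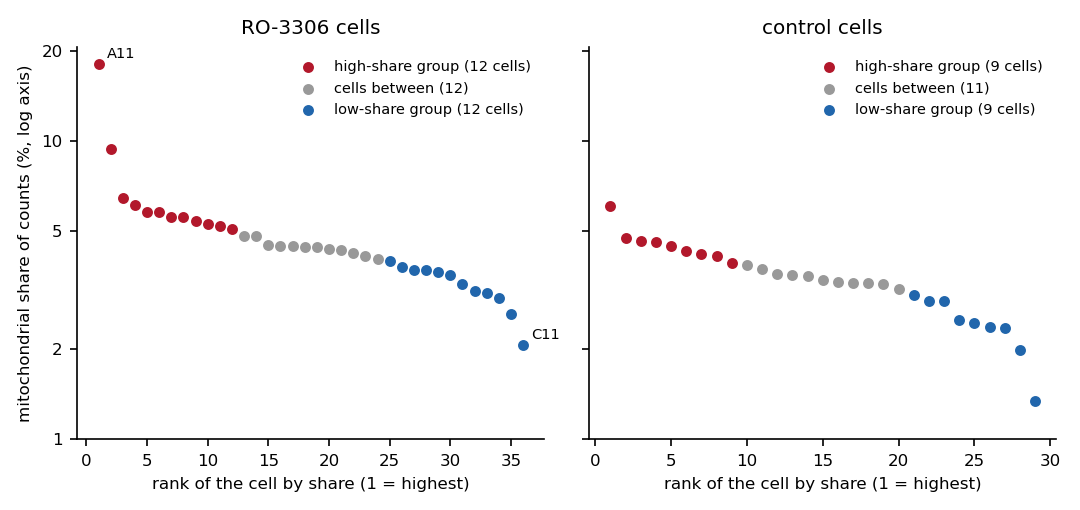
Mitochondrial share of counts (%, log axis) of each kept cell against its rank, for 36 RO-3306 cells on the left and 29 control cells on the right. Each point is 1 cell, coloured by group. The RO-3306 groups begin at 5.06% and end at 3.96%, with A11 at 18.1% and C11 at 2.06% at the extremes.

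The lettered sets were not evenly spread over the groups. The high-share group held 2, 5, 4 and 1 cells of sets A, B, C and D, and the low-share group held 5, 1, 5 and 1. Values with the groups formed inside each set, of 11 cells a side in all, are given where they differ most from the values over all cells, as "within sets".

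The mitochondrial genes that make up the share are described first. In the high-share group all 13 protein genes had a higher median per-cell level than in the low-share group, as the choice of cells makes likely. Levels of these genes are in CPM of all counts of a cell. mt-Cytb, the mitochondrially encoded subunit of complex III, was lowest at 6417, had a median of 10927 and reached 26610 CPM in the high-share group, against 875, 5605 and 6795 CPM in the low-share group. mt-Nd1, a core subunit of complex I, had medians of 9316 and 5261 CPM, and its lowest high-share cell (7636 CPM) lay above its highest low-share cell (6933 CPM). mt-Co1, the catalytic subunit of complex IV, had medians of 9085 and 6062 CPM, and its ranges overlapped.

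The ratio of the medians was not the same for every gene. It was largest for mt-Atp8, a short ATP synthase subunit whose frame overlaps that of mt-Atp6, at 2.24, but this gene had medians of only 37.4 and 16.7 CPM. Among genes above 1000 CPM in both groups it ran from 1.28 for mt-Nd5 to 1.95 for mt-Cytb, with 1.94 for mt-Rnr2, the large rRNA. As a part of the mitochondrial counts of a cell, mt-Co1 took a median of 15.7% in the high-share group (at most 19.2%) and 19.1% in the low-share group (at most 26.7%). mt-Cytb took 17.9% and 15.4%. In control cells split the same way, the order was the other way, with mt-Co1 at 16.8% in the high-share group and 15.4% in the low-share group.

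mt-Rnr1 and mt-Rnr2 together held a median of 15.3% of mitochondrial counts in the high-share group (10.4% to 31.7%) and 15.5% in the low-share group (9.50% to 25.6%). Per kilobase of gene, on the summed counts, mt-Nd1 was the most abundant in both groups, at 10183 and 5758 CPM. Only 2 of the 22 tRNA genes had any count.

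**Figure D2:**
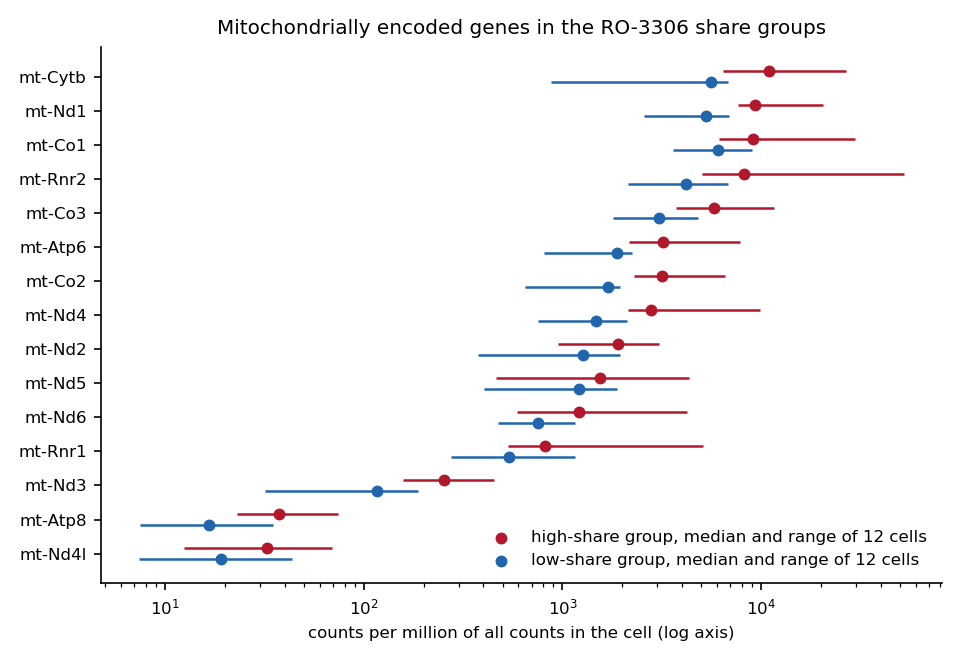
Counts per 1e6 counts of the cell (log axis) for the 13 protein genes and 2 rRNAs of the mitochondrial genome. Points are medians and lines run from the lowest to the highest of 12 RO-3306 cells; the high-share group has the higher median for each gene, with mt-Cytb at 10927 against 5605 CPM.

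The nuclear-coded subunits of the OXPHOS complexes were higher in the high-share group. Of 78 subunits that averaged 5 nuclear CPM or more, 58 had a ratio of high over low above 0 on the log2 scale, with a median of 0.29. Among all 8846 nuclear genes at that level, 53.0% did not lie above 0, with a median of -0.07 and quartiles of -0.84 and 0.57. Ratios are of counts summed over the cells of a group, scaled to 1e6 nuclear counts, with 1 CPM added before taking log2, which understates differences of low genes. Summed over the 78 subunits, the high-share group had a lowest value of 9641, a median of 35015 and a highest value of 42402 CPM. The low-share group ran from 18406 through 28747 to 37218 CPM, and 10 of 12 high-share cells exceeded the low-share group's median. The cells between the groups had a median of 33377 CPM.

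Across the 36 cells the summed OXPHOS level had a Spearman correlation of 0.53 with the mitochondrial share, and of 0.64 across the 34 cells without A11 and C11. The cells share their treatment and library kit. The share itself had a correlation of 0.12 with total counts. A11 had the lowest OXPHOS level of the high-share group, 9641 CPM, and C11 the lowest of the low-share group, 18406 CPM. Inside sets A, B, C and D, with groups of 3, 3, 3 and 2 cells, the medians were 36388 against 29069, 33606 against 30042, 38627 against 26659 and 30783 against 29825 CPM. The order of these medians was the same in each set and the gap was smallest in set D. The correlation with the share was 0.25, 0.68, 0.75 and 0.09 among all kept cells of sets A, B, C and D. In set D the cell with the highest share, D7, had the lowest OXPHOS level, 27907 CPM.

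The complexes differed in size of ratio. Complex IV, which reduces oxygen, had a median of 0.43, with 11 of 12 subunits above 0. The proton-driven ATP synthase had 0.30, with 16 of 17 above 0, and complex III had 0.30, with 6 of 9. Complex I, the largest complex, had 0.21, with 23 of 36 above 0, and complex II, the only complex coded wholly in the nucleus, had -0.06, with 2 of 4. Without A11 and C11 the medians were 0.42, 0.30, 0.28, 0.23 and -0.03 in the same order. The complex III median was -0.05 with groups of 9 cells. The complex I median was 0.06 without set C. Within sets the medians were 0.40 for complex IV, 0.32 for ATP synthase, 0.32 for complex III, 0.23 for complex I and 0.23 for complex II.

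Single subunits showed how the cells were spread. Cox6c, a small subunit of complex IV, had a lowest value of 225, a median of 1121 and a highest value of 1645 nuclear CPM in the high-share group, and 123, 739 and 1105 CPM in the low-share group. Its log2 ratio was 0.60, 6 of 12 high-share cells lay above every low-share cell, and the ratio in control cells was 0.61. Ndufa3, an accessory subunit of complex I, had 0, 305 and 502 CPM in the high-share group and 91.6, 157 and 203 CPM in the low-share group. Only 1 high-share cell was not above all low-share cells, and the log2 ratio of Ndufa3 was 0.90, against 0.31 within sets. Other subunits went the other way: Ndufa10 of complex I had summed levels of 57.3 and 156 CPM (log2 ratio -1.43), and Uqcrc2, a core protein of complex III, had 43.4 and 101 CPM (-1.20). Within sets Ndufa10 was at -0.37 and Uqcrc2 at -0.34. Cox4i1 and Cox5a of complex IV were at -0.11 and 0.01.

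Cytosolic ribosomal proteins, the protein part of the ribosomes that translate nuclear mRNA, were higher together in the high-share group. Of 77 genes, 76 lay above 0, with a median log2 ratio of 0.43, while 53.0% of all genes did not lie above 0. Their summed level ran from 17306 through a median of 64804 to 82825 CPM in the high-share group and from 38772 through 51781 to 64121 CPM in the low-share group. A11 gave the 17306 CPM and C11 the 64121 CPM, so these cells lay at the end of each range opposite to their group. The correlation with the share was 0.48 over 36 cells and 0.67 over 34 without them. It was -0.19 among the 10 cells of set A, 0.62 among the 9 of set B, 0.79 among the 11 of set C and 0.14 among the 6 of set D. The list median was 0.37 within sets and 0.16 without set C.

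Rps27, a small-subunit protein, had 79.0, 713 and 1157 CPM (lowest, median, highest) in the high-share group and 265, 401 and 539 CPM in the low-share group, with a log2 ratio of 0.89. Rpl22, a large-subunit protein, had summed levels of 82.5 and 40.4 CPM, a log2 ratio of 1.01, and 0.35 within sets. Rps3 was the 1 member below 0, at -0.17. Reads of these genes are often shared with pseudogenes: 71 of the 77 had fractional counts in over 50% of the cells with a count. The other 6 had a median of 0.40.

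**Figure D3:**
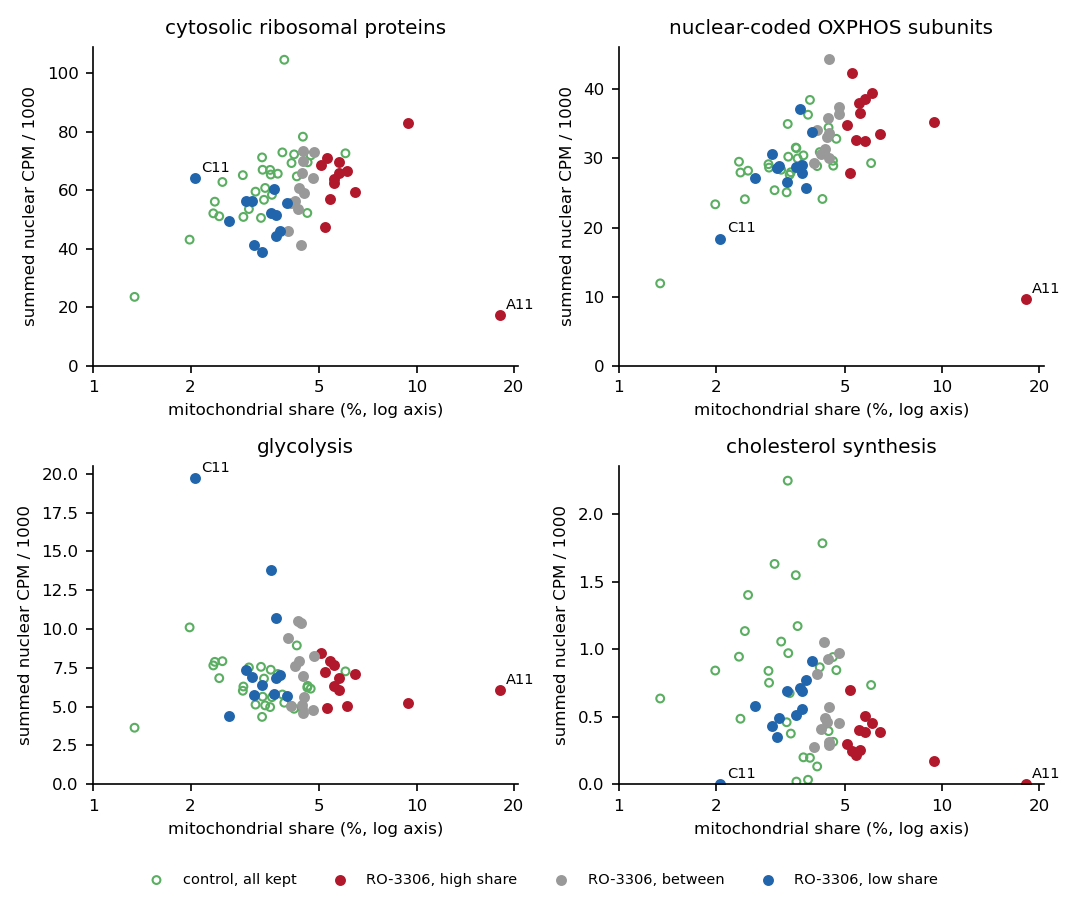
Summed nuclear CPM, divided by 1000, of 4 gene lists against the mitochondrial share (%, log axis). Each point is 1 cell, filled for RO-3306 by group and open for control. In RO-3306 the ribosomal protein and OXPHOS sums have higher medians in the high-share group (64804 and 35015 CPM) than in the low-share group (51781 and 28747 CPM), with A11 far below both.

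Other genes of mitochondrial upkeep did not share 1 direction. Import components, the translocases that bring nuclear-coded proteins into the organelle, had a median of 0.21 with 17 of 23 above 0, and 0.33 within sets. Samm50, of the outer-membrane sorting machinery, had summed levels of 221 and 92.4 CPM (1.25), and Timm23, the inner-membrane channel, had 48.9 and 81.6 CPM (-0.73), but every cell with a Timm23 count had a fractional one. Within sets Samm50 was at 0.084. Mitochondrial ribosomal proteins were near the background, with a median of 0.08 and 43 of 76 above 0. Those of at least 50 CPM on this list ran from Mrpl1 at -2.17 to Mrps9 at 1.17, and Mrps9 was at 0.37 within sets.

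Mitochondrial chaperones and proteases, which fold and clear proteins inside the organelle, had a median of -0.51, with 5 of 16 above 0. Hspd1, the matrix chaperonin, had medians of 275 CPM in the high-share group and 393 CPM in the low-share group (log2 ratio -0.26). Restricting the list to its 6 genes of at least 200 CPM gave 0.12, so the low median came from the less abundant members. Tfam, which packages mitochondrial DNA and starts its transcription, was detected in 2 of 12 high-share and 10 of 12 low-share cells, with summed levels of 12.8 and 58.5 CPM (-2.11). Dnm1l, the GTPase of mitochondrial fission, had 29.6 and 167 CPM (-2.46). Lrpprc, which stabilises mitochondrial mRNAs, had 27.3 and 27.2 CPM (0.01), and 0.95 without A11 and C11.

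Energy metabolism outside the respiratory chain was lower or mixed in the high-share group. Glycolysis genes had a median of -0.43, with 2 of 15 above 0, and -0.87 within sets. Pkm, the pyruvate kinase, had medians of 565 and 717 CPM (-0.54), Slc16a1, a lactate transporter, had summed levels of 35.7 and 129 CPM (-1.82), and Gapdh was at -0.15. The summed level of the list was nearly the same in both groups, at medians of 6588 and 6875 CPM, and C11 held the highest value, 19735 CPM. Inside set B the high-share median of the sum was the larger, 6067 against 5717 CPM. Inside sets A, C and D it was the smaller. The TCA cycle and pyruvate dehydrogenase list had a median of -0.25, with 6 of 18 above 0. Dlat, the acetyltransferase of pyruvate dehydrogenase, was at 2.25, far above that median, but at -0.31 within sets.

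Cholesterol synthesis genes were lower in the high-share group, with a median of -0.91 and 4 of 12 above 0. Their summed level had a median of 340 CPM in the high-share group (2.37 to 696) and 565 CPM in the low-share group (0 to 911). Both lowest values belonged to A11 and C11. Inside sets A, B, C and D the medians of the summed level were 398 against 427, 456 against 490, 243 against 576 and 505 against 782 CPM. Only 4 of the 12 genes averaged 50 CPM or more. Msmo1 and Sc5d, late enzymes of the pathway, had log2 ratios of -1.74 and -1.57. Within sets these were -0.79 and -0.62, and Msmo1 was at -0.022 without set B. The list median was -0.50 within sets and -0.36 after thinning every cell to 680000 nuclear counts.

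Stress and protein-folding lists also had medians below 0. The integrated stress response list had -0.33, with 4 of 23 above 0, the endoplasmic reticulum chaperones -0.37, with 4 of 17, and the heat shock chaperones -0.44, with 2 of 9. Within sets these medians were -0.59, -0.23 and -0.14. Ddit3 (CHOP), a stress-induced factor, had 0, 663 and 1766 CPM in the high-share group and 101, 435 and 1508 CPM in the low-share group, a log2 ratio of 0.86. The ratio of Ddit3 was 0.24 within sets and 0.24 without set B. Atf4, upstream of it, had medians of 914 and 1155 CPM (-0.13). Slc7a11, the cystine transporter, had summed levels of 27.2 and 75.2 CPM (-1.43).

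Ferritin, the iron store of the cell, was higher in the high-share group, while the NRF2 target list that holds it had a median of -0.11 with 8 of 23 above 0. Ftl1, the ferritin light chain, had medians of 21908 CPM in the high-share group (2629 to 28310) and 16594 CPM in the low-share group (10386 to 23054). Fth1, the heavy chain, had 12806 and 8121 CPM. The log2 ratios were 0.56 and 0.69, and 0.34 and 0.23 within sets, while the other genes of that list summed to medians of 9534 and 10958 CPM. Hmox1, the haem oxygenase of the list, was at -1.02. Ftl1 counts were fractional in every cell, so reads were shared with similar sequences.

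The summed levels of cell-cycle and cell-type lists overlapped between the groups. S phase genes had a median of -0.09 with 16 of 37 above 0, and G2/M genes -0.35 with 17 of 54. The S phase sum was lower in the high-share group, with medians of 2445 and 3858 CPM. Of 12 high-share cells, 3 exceeded the low-share group's S phase median. G2/M sums had medians of 9808 and 10811 CPM. Mki67, a marker of cycling cells, was detected in 3 of 12 high-share and 4 of 12 low-share cells. Ccnb1, the mitotic cyclin that binds CDK1, had medians of 122 and 267 CPM (-0.69), and Cks1b, a partner of cyclin-dependent kinases, had 1132 and 818 CPM (0.80, and 0.33 within sets). The Trp53 (p53) target list had -0.37 with 7 of 19 above 0, and Cdkn1a, its cell-cycle inhibitor, had medians of 213 and 254 CPM. The list was at -0.010 within sets and 0.024 without set B, where Cdkn1a was at 0.12. Histone genes had 0.43, with 8 of 10 above 0, but 0.040 within sets and 0.02 after correction for mRNA length. Splicing and nuclear RNA-binding genes had -0.29, with 4 of 24 above 0, tubulins -0.40, with 2 of 10, and proteasome subunits -0.16, with 13 of 36. The tubulin median was -0.17 within sets and -0.049 without set C. Lysosomal genes had -0.10, with 5 of 21 above 0, and Cd68 had medians of 279 and 260 CPM. The lysosomal median was -0.39 within sets, -0.79 without set A and -0.83 without set D. Macrophage markers summed to medians of 16.5 and 74.9 CPM, with 4 of 10 at 0 in every kept cell. Endothelial markers did not reach 1 CPM in any cell of the groups.

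Several high ratios rested on A11 alone. Malat1 had summed levels of 1520 and 70.1 CPM, but per-cell medians of 38.5 and 40.1 CPM. Its log2 ratio was 4.42 with A11 and -0.24 without it. Neat1 went from 4.45 to -1.46. Col5a2, a fibrillar collagen, went from 1.35 to -0.54, and A11 held 6352 CPM of it. The collagen and matrix list had a median of -0.41 by sums and 0.48 by the mean over cells, and -0.94 without A11 and C11. It was -0.13 within sets. The summed level of this list had medians of 2140 CPM in the high-share group and 4289 CPM in the low-share group, with overlapping ranges. Without A11 and C11 these were 2094 and 4441 CPM.

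**Figure D4:**
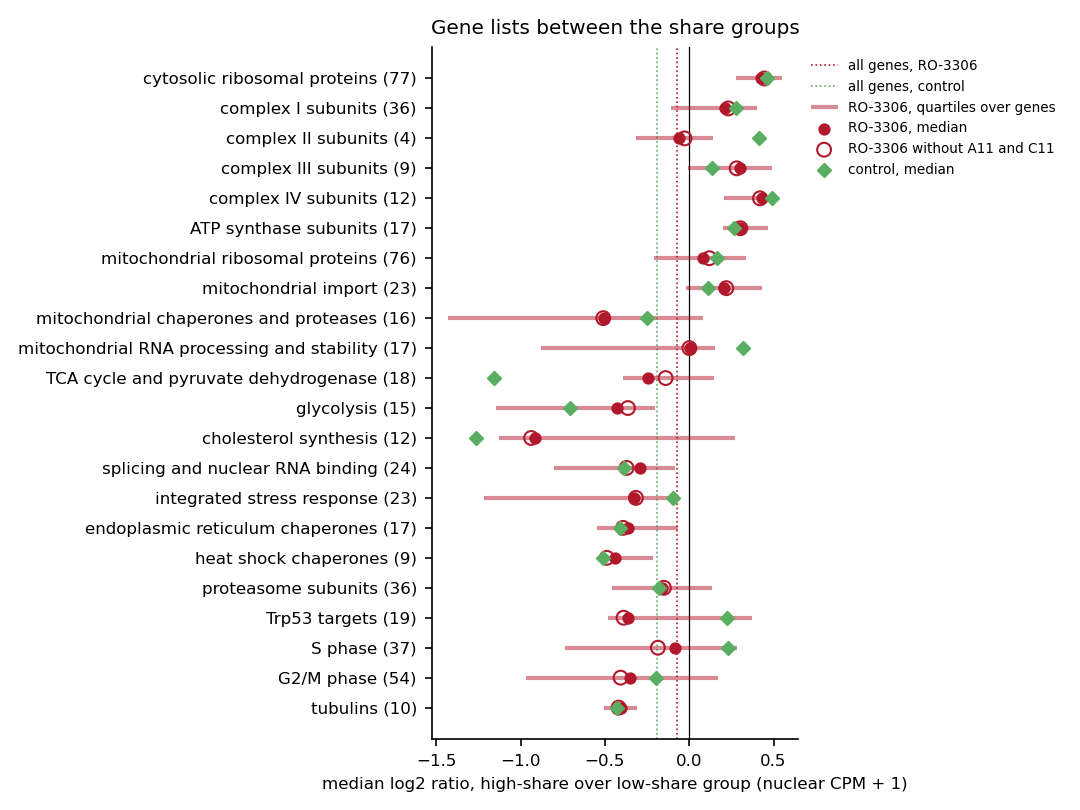
Median log2 ratio of nuclear CPM, high over low-share group, for 22 gene lists (number of genes of at least 5 CPM in brackets). Filled red points are RO-3306 with lines for the quartiles over genes, open circles are RO-3306 without A11 and C11, green diamonds are control, and dotted lines are the medians over all genes (-0.07 and -0.19). Ribosomal proteins (0.43) and complex IV (0.43) lie highest and cholesterol synthesis (-0.91) lowest.

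Control cells were split by the same rule into groups of 9 of the 29 kept cells, with shares of 3.90% to 6.03% and 1.34% to 3.03%. They share no cells with the RO-3306 groups. In control cells 54.6% of 8926 genes did not lie above 0, with a median of -0.19. OXPHOS subunits had a median of 0.33 in control cells, with 61 of 78 above 0, and ribosomal proteins 0.46, with 73 of 78. The 12 complex IV subunits were all above 0, with a median of 0.49. Glycolysis and cholesterol synthesis had medians of -0.71 and -1.27. These lists thus had the same sign in both treatments. Complex II (0.41), Trp53 targets (0.23) and S phase genes (0.23) were among lists with the opposite sign in control cells. The RO-3306 sign of each of these changed in some setting. Complex II was at 0.23 within sets, Trp53 targets at 0.024 without set B and S phase genes at 0.025 after correction for mRNA length. The difference between the treatments was not tested. Control cells within their groups ranged down to 59979 counts, so their ratios are less precise. Sets A, B, C and D gave 4, 3, 2 and 0 cells of the control high-share group and 1, 3, 1 and 4 of the low-share group. In control cells, set and share were thus partly mixed. Control cell B4 held 6328940 of the 23987400 nuclear counts of the control low-share group, with 13059 CPM of Malat1.

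Gene length weighted by counts ran along with the share, but across genes the Spearman correlation of length and RO-3306 ratio was near 0. The mean mRNA length of the reads' genes, as a geometric mean weighted by counts, had a median of 1246 nt in the high-share group and 1319 nt in the low-share group. Its correlation with the share was -0.48 over the 36 RO-3306 cells, -0.59 over the 34 without A11 and C11 and -0.53 over the 29 control cells. Abundant genes weigh most in this mean. Across 8292 genes, length and the RO-3306 log2 ratio had a Spearman correlation of only -0.04. With genes divided into 10 classes by length, the shortest class (median 630 nt) had a median log2 ratio of 0.15. The lowest value, -0.27, was that of class 8 (3137 nt), and the longest class (5775 nt) was at -0.05. In control cells the correlation across genes was -0.13. The control class medians went from 0.17 in the shortest class to -0.84 in the longest. Ribosomal protein and OXPHOS mRNAs are short, with medians of 697 and 655 nt. After subtracting the median ratio of genes of like length, the medians were 0.34 and 0.24, against 0.43 and 0.29. Cholesterol synthesis went from -0.91 to -0.64 and glycolysis from -0.43 to -0.41. Splicing and nuclear RNA-binding genes went from -0.29 to -0.15, endoplasmic reticulum chaperones from -0.37 to -0.17 and tubulins from -0.40 to -0.23. The integrated stress response list moved the other way, from -0.33 to -0.48. The part of RNA quality or capture in these differences was not tested.

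Which single nuclear genes passed 2-fold depended on the cells compared. Of 3554 nuclear genes averaging 50 CPM or more, 161 (4.53%) were at least 2-fold higher in the high-share group and 334 (9.40%) at least 2-fold lower, with the same sign in the mean over cells. Without A11 and C11 the numbers were 149 and 338, of which 139 and 297 were among the first. With groups taken inside each lettered set they were 216 and 340, of which only 64 and 149 were shared. Of the 161 genes, 45.3% lay above 0 in control groups, against 50.9% of all 3554. Of the 334, 64.4% lay below 0 in control groups, against 49.0% of all 3554. Of the 495 genes past 2-fold, 32.5% were higher in the high-share group; with DESeq2 size factors, which use genes detected in every kept cell, 47.4% were.

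The naming rule took the 12 highest and 12 lowest ratios among 1341 genes detected in 75% or more of the cells of the higher group, no single cell holding over 50% of that group's level, and 1 sign in sums, means, medians and with each set left out. Htatsf1, a splicing and elongation cofactor, Med15, a Mediator subunit, and Gtf2h1, a TFIIH subunit, were at 2.75, 2.73 and 2.33. Rragc, a GTPase that signals amino acids to mTORC1 at the lysosome (chromosome 4, 123811226 to 123830790 on GRCm39), had 0.79, 311 and 625 CPM in the high-share group and 0, 25.5 and 169 CPM in the low-share group. Of its 12 high-share cells, 7 lay above every low-share cell. The ratio of sums was 5.91 (95% interval 5.59 to 6.25, counting error only), but the log2 ratio of 2.54 was 0.57 within sets.

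The highest ratio was that of 2610301B20Rik (3.29), with medians of 71.7 and 2.01 CPM. Zfp932 (2.64), Slc35c2 (2.42), Gmfb (2.39), Trim35 (2.33), Dlat (2.25), Ahnak (2.19) and the kinase Gsk3b (1.99) completed this side. Zfp932 counts were fractional in 76.7% of cells with a count and are uncertain. Dlat had 24.3 CPM as median in the high-share group and 0 in the low-share group, where 5 of 12 cells had a count, and its log2 ratio was -0.31 within sets. Within sets 9 of these 12 genes were at least 2-fold higher, and the others were Dlat, Rragc and Trim35 (0.27). Most cells of the within-set groups were also in the groups that chose the genes, so this count is no separate check. Of these 12 genes, 3 lay above 0 in control groups: Med15, Gmfb and Trim35.

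Smim15, which encodes a small membrane protein (chromosome 13, 108181008 to 108185680), had the lowest ratio, -4.00. Its lowest, median and highest levels were 0, 2.38 and 112 CPM in the high-share group and 22.2, 137 and 1755 CPM in the low-share group. Of the 12 high-share cells 6 had a count and all 12 low-share cells did. C11 held the highest value, and the log2 ratio was -3.59 without A11 and C11. The summed level was 0.0577 of that in the low-share group (0.0515 to 0.0644, counting error only).

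The other low genes included Ptcd3, counted here among mitochondrial RNA processing genes (-3.11), Idh1, the cytosolic isocitrate dehydrogenase (-2.37), Dnm1l (-2.46) and Rab6a, a GTPase of Golgi traffic (-2.52). Mkln1, of a ubiquitin ligase (-3.06), Wrap73 (-2.90), Hspa13, an Hsp70 relative (-2.71), Ddx41, an RNA helicase (-2.56), Kif22, a chromosome-binding kinesin (-2.52), Add3, an adducin (-2.48), and Pld3 (-2.42) made up the rest. Ptcd3 counts were fractional in 72.7% of cells with a count, and its log2 ratio was -0.29 within sets. Within sets 10 of the 12 lowest genes were at least 2-fold lower, and the others were Ptcd3 and Ddx41 (-0.36). In control groups 9 of the 12 lay below 0, and Wrap73, Add3 and Dnm1l lay above it at 2.29, 1.34 and 1.33. All 24 genes were still at least 2-fold apart without A11 and C11, which the naming rule favours. The rule favours the counts within sets as well, since most of their cells were in the groups that chose the genes.

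**Figure D5:**
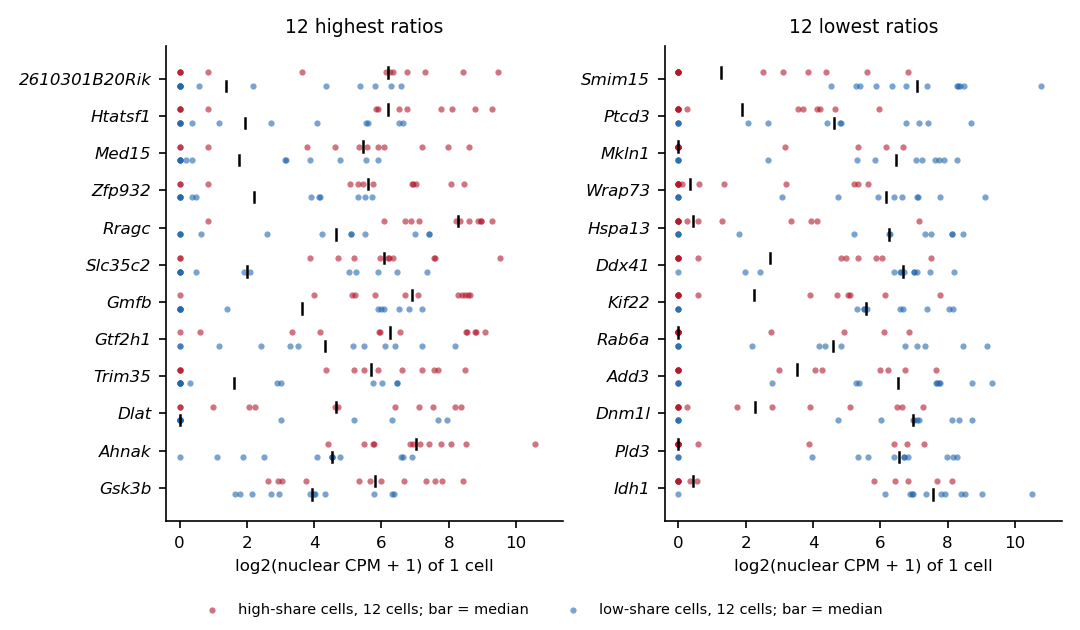
log2(nuclear CPM + 1) of each cell for the 12 genes with the highest (left) and the 12 with the lowest ratio (right) under the naming rule. Each point is 1 cell of the high (red) or low (blue) share group and black bars are medians; many cells are at 0, and for Rragc and Smim15 the medians are 311 against 25.5 and 2.38 against 137 CPM.

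The nuclear gene Myo3a, a myosin, was chosen after its values were seen, for its relation to the share, so its values are a description only. It ran from 62.8 through a median of 83.8 to 175 CPM in the high-share group and from 20.9 to 56.3 CPM in the low-share group, with no overlap and a correlation of 0.83 with the share over 36 cells (0.38 over 29 control cells). Its counts were fractional in 91.7% of cells with a count. Pcdh15, a cadherin, had medians of 254 and 153 CPM and fractional counts in every cell. Which sequences shared these reads was not tested.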

How the data were processed

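The deposited files give estimated counts per gene, 1 file a library. Per the file headers, featureCounts 2.0.3 produced them; the headers name GRCm39, whole gene spans and fractional counts for reads placed at several sites. The submitters' processing notes also name STAR and FastQC. Reads carry no molecular identifiers, so intervals (exact, 95%) cover counting error only. Fractions were rounded to whole counts for intervals, thinning and scaling factors.

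The authors' values were not rescaled before summing. The 36 cells, the gene lists and the naming rule were chosen with earlier results of these data known. Counts of nuclear genes were summed per group and scaled to 1e6. A gene was counted as 2-fold apart at a log2 ratio of 1 with the same sign in the mean over cells. Lists used genes of at least 5 CPM and calls genes of at least 50 CPM. mRNA lengths came by symbol from GENCODE transcripts of an older assembly (93.7% of genes matched). The values of 1 gene are not reported here. No 2 kept libraries were identical, and no doublet caller was run on sorted cells. The steps were checked on drawn counts. Python 3.11.15, numpy 2.4.6, pandas 2.3.3, scipy 1.17.1, edgeR 4.0.16 and DESeq2 1.42.0 (scaling factors only) were used.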

Additional observations from a re-analysis of the deposited data

Results flagged for a closer look

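Among RO-3306 libraries outside the comparison, 3 had mitochondrial shares far above any control library of at least 1000 counts, whose highest share was 9.07%. B3 had 56.0% of 295005 counts and 3901 genes, and only the cap on the share kept it out. D5 had 87.3% of 773537 counts and 779 genes, and C12 had 84.5% of 48054 counts and 831 genes, so both missed the gene minimum. All 3 had Malat1 between 792 and 1346 nuclear CPM, against per-cell medians of 38.5 and 40.1 in the groups. C11 of the low-share group had 858 CPM, so such a level was not limited to cells of high share. The values of C12 and D5 rest on few nuclear counts.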

How the results depend on the processing

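No paired analysis was possible because the title numbers are not known to pair cells, cells of 1 treatment were compared and no test was made. Over 24 alternatives the medians of OXPHOS subunits (0.06 to 0.39) and ribosomal proteins (0.16 to 0.57) kept their sign, with DESeq2 size factors giving the lowest values. Glycolysis (-1.75 to -0.36) and, over 23, cholesterol synthesis (-1.09 to -0.17) did so too. Not all alternatives could change a list: the 5 CPM filter for calls left every list median as it was. The edgeR factors and scaling to all counts moved the median of all genes by only 0.047 and -0.042. The counts of genes at least 2-fold higher and lower moved with the filter, to 1365 and 1858 at 5 CPM and 10 and 15 at 200 CPM, and with group size, to 74 and 181 for groups of 18 cells and 288 and 546 for groups of 9. The higher count was 249 by the mean over cells, 431 with DESeq2 size factors, 246 without set B and 334 without set C; the lower count was 559 without set A and 504 without set D. Of genes past 2-fold, 32.5% were higher, against 47.4% with DESeq2 size factors and 47.4% without set C; the former shared 65 of the 161 higher and 227 of the 334 lower genes. Of 165 genes and 35 lists tabulated, 27 and 5 changed sign with groups within sets, 27 and 8 with DESeq2 size factors and 22 and 6 without set B. Called values (genes past 2-fold, and lists on 1 side of 0 and of all genes with each set left out) that changed sign, the cause not tested: with DESeq2 size factors Uqcrc2 0.015 and Junb 0.047; thinned, Malat1 -0.50, Neat1 -1.59 and Col5a2 -0.14; groups of 18, Cebpg 0.067; groups of 9, complex III -0.055 and Mgme1 -0.25; without set A, Neat1 -0.58 and Mgme1 -0.44; without set C, Chchd10 -0.43 and Cebpg 0.29; without set D, Mrps9 -0.17, Mgme1 -0.43 and Ckap2 -0.32; groups within sets, Dlat -0.31, Chchd10 -0.056, Prim1 -0.055 and Ckap2 -0.97; genes of at least 200 CPM, mitochondrial chaperones 0.12. Of those chosen after seeing the data, without A11 Malat1 -0.24, Neat1 -1.46 and Col5a2 -0.54; without A11 and C11, Neat1 -1.40 and Col5a2 -0.58; length correction, S phase 0.025. Leaving out set A moved the median of all genes by -0.12. Without replicate cultures, no difference has a replicate check, and depth limits single genes near 5 CPM.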
